A study of Mus musculus with 6 samples.

Results

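The 44 genes described here copy DNA or carry chromosomes through division. They were listed by gene symbol, with earlier results of these data known. Of these, 42 had a probe under their symbol on the array, and 40 had a probe that passed detection (p under 0.01 against negative control beads) on 3 or more of the 6 arrays and were tested among 9190 genes. Ccnb1, which encodes cyclin B1, and the proliferation antigen gene Mki67 had no probe under their symbol in the annotation used here. Ccnb2, for cyclin B2, and Ccne1, for cyclin E1, had 1 probe each, which was not detected on any array. All 40 tested genes were detected on all 6 arrays.

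Expression was measured on Illumina bead arrays in ectoderm over the eye of mouse embryos at embryonic day 9.5, the stage at which normal surface ectoderm thickens to form the lens placode. Tissue cut by laser microdissection from frozen sections of wild-type embryos, labelled lens placode, was compared with tissue of Pax6-/- embryos, labelled surface ectoderm, both on a mixed FVB and 129 background, to ask which genes depend on the transcription factor Pax6. RNA of 3 embryos was pooled per genotype and amplified in triplicate, which gave 3 wild-type and 3 knockout arrays. The p-values and intervals therefore compare 2 pools and measure the spread of amplification and array. For a statement about embryos the p-values are too small and the intervals too narrow. Slides were taken from the number that arrays share in the file headers. Slide 1 held wild-type arrays 1 and 3 and knockout arrays 2 and 3, and slide 2 held 1 array of each genotype. The labels do not name the Pax6 allele.

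Before S phase, origins are licensed by loading of the Mcm2 to Mcm7 helicase, which Cdc6 and Cdt1 carry out and geminin (Gmnn) restrains. Polymerases, the sliding clamp Pcna and its loader, the replication factor C complex, then copy the DNA with nucleotides supplied by ribonucleotide reductase and thymidylate synthase. D-type cyclins with Cdk4 relay growth signals to the retinoblastoma protein and so release E2F factors, which drive many replication genes, whereas mitotic genes are transcribed later through NF-Y boxes and the cell cycle homology region (CHR) near their start sites. Lens placode and head ectoderm are both dividing epithelia at this stage.

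E2F matches were most frequent in the replication windows, and CHR matches in the mitosis windows. RefSeq promoter windows of the GRCm38.p6 build, 250 bases before to 50 bases from the start site on, were matched by symbol for 36 of the 44 genes (41 windows, since some genes have several starts). The other 8 genes were Mcm4, Gmnn, Ccnd1, Ccnd2, Ccna2, Ccne2, Aurkb and Kif20a. The E2F site was searched as TTCCCGC and in the variant forms TTGGCGC as well as TTCGCGC and, lastly, TTGCCGC. The CHR was searched as TTTGAA, and the NF-Y box was searched as CCAAT, each on both strands, with overlaps allowed. An E2F match lay in 15 of 23 replication windows (65.2%), in 3 of 13 mitosis windows (23.1%) and in 9.57% of all 32851 windows, or 17.6% of windows of tested genes. A CHR match lay in 10 of 13 mitosis windows (76.9%), 3 of 23 replication windows, 17.9% of all windows and 12.0% of those of tested genes. All 10 mitosis windows with a CHR match also held an NF-Y box, a combination found in 6.95% of all windows. Median GC content was 57.7% over these windows and 61.3% over windows of tested genes. A match is a string in this window and not a measured binding site.

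Windows of 6 genes are shown because they represent both kinds of promoter and, apart from Mcm6, belong to genes given array by array further on. The capitals mark E2F, CHR and NF-Y matches. Mcm6 (chr1:128359656-128359955 on the minus strand), a helicase subunit, held 5 E2F matches. Rfc4 (chr16:23127681-23127980 on the minus strand), a clamp loader subunit, held 1, and Cdk2 (chr10:128705002-128705301 on the minus strand), the S-phase kinase, held 3. Cdk1 (chr10:69352863-69353162 on the minus strand), the mitotic kinase, held 2 E2F, 2 CHR and 3 NF-Y matches. Plk1 (chr7:122159185-122159484 on the plus strand), a polo-like kinase of mitosis, and Bub1b (chr2:118597961-118598260 on the plus strand), a spindle checkpoint kinase, held 1 CHR and 1 NF-Y match each.
Mcm6: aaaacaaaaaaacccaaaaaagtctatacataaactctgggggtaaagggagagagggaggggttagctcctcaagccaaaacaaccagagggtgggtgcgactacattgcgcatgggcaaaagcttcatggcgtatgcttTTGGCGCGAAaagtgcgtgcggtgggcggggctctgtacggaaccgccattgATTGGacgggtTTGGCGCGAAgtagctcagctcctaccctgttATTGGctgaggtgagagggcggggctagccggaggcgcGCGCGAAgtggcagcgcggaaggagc
Rfc4: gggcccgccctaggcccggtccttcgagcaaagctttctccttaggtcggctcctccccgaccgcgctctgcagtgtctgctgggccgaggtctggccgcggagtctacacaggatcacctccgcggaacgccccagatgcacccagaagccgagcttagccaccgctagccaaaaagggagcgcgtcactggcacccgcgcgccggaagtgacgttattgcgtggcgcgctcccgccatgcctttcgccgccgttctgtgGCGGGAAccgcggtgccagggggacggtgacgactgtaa
Cdk2: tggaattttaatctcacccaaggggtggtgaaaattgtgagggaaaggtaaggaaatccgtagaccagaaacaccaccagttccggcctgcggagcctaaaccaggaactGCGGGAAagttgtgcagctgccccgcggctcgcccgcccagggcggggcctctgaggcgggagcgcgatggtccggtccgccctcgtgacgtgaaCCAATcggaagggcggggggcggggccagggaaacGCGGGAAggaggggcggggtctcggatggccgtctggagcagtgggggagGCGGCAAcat
Cdk1: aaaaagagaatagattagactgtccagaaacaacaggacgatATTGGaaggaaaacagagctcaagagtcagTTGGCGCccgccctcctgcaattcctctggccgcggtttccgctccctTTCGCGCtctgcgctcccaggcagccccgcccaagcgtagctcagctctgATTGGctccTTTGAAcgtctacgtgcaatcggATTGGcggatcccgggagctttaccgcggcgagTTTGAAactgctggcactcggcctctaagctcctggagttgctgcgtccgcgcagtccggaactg
Plk1: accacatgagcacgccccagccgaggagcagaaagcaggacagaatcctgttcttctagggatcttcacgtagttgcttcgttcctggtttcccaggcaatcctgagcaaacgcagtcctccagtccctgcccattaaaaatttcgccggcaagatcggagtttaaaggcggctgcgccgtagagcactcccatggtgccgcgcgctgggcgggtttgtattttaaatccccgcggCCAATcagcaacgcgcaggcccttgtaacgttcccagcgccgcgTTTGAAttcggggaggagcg
Bub1b: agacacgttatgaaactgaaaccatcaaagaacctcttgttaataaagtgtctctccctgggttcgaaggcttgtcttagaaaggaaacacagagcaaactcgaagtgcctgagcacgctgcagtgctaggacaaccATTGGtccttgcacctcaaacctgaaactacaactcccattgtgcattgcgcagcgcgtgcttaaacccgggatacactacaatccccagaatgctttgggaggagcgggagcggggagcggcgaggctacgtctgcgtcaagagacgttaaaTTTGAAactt

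**Figure D1:**
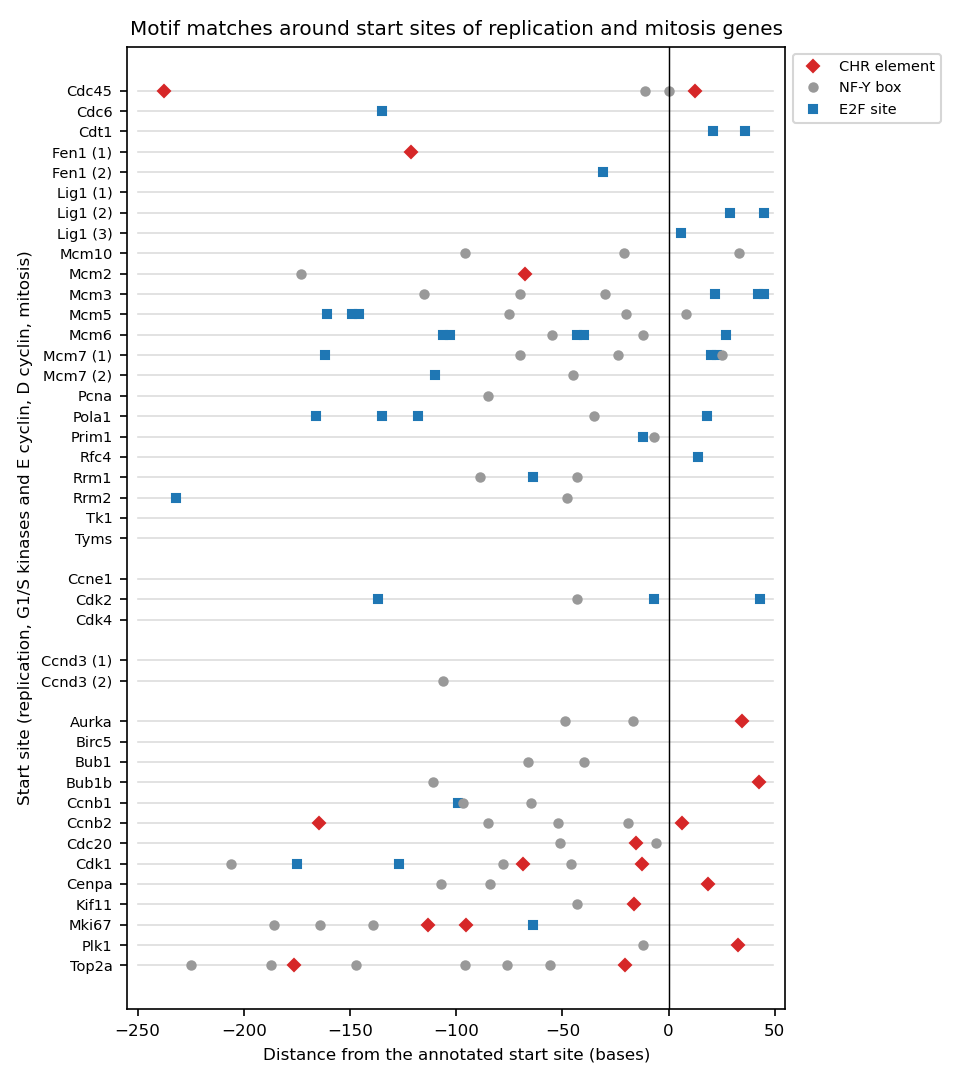
Motif matches (squares E2F site, diamonds CHR element, circles NF-Y box) by distance in bases from the annotated start site, one line per window of 300 bases for 36 genes. E2F matches lie in 15 of 23 replication windows and CHR matches in 10 of 13 mitosis windows.

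Of the 40 replication and mitosis genes, limma called 0 higher and 0 lower in the knockout at an adjusted p under 0.05. Of all 9190 genes, 3.28% were called, 139 higher (1.51%) and 162 lower (1.76%), so a count of 0 among 40 is near the background. The smallest change called among all genes was 0.37 in size and the median called change 1.28, so changes of the size seen in these genes were mostly below what the test called. At an unadjusted p under 0.05 there were 8 of 40 genes (20.0%), 3 higher and 5 lower, against 16.9% of all genes, 8.54% higher and 8.39% lower. Changes, given throughout as knockout minus wild type in log2 intensity, ran from -0.61 for Rfc4 to 0.49 for Cdk1, with a median of -0.03 against -0.01 over all genes. The median size of change without sign was 0.22, against 0.25 over all genes, so by size these genes differed about as much as genes in general. For 34 of the 40 genes the 95% interval of the change lay within 2-fold either way, and for 19 within 1.5-fold, compared with 59.9% and 23.1% of all genes. The median standard error (SE) was 0.17 for these genes and 0.28 over all genes. The intervals reached past 2-fold for the other 6 genes, which were Cdc45, Pola1, Rfc4, Cdk1, Bub1 and Kif20a. No overlap between wild-type and knockout arrays was seen for 16 of the 40 genes (40.0%), 5 higher and 11 lower. This was a larger share than the 22.8% of all genes tested and the 23.3% of those detected on all 6 arrays. Among the 16, the margin was small for Mcm6, Pcna, Bub1 and Ccnd2.

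**Figure D2:**
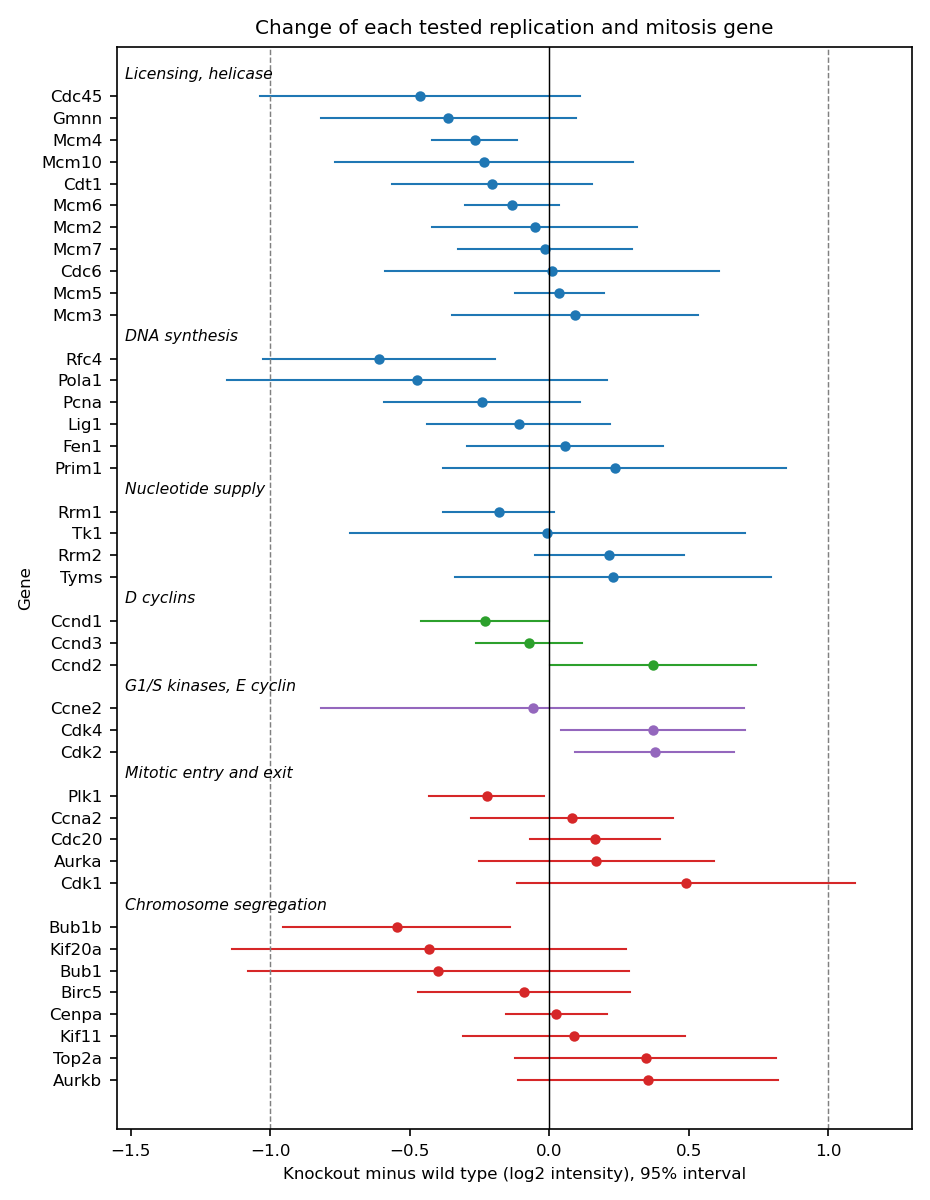
Change (knockout minus wild type, log2 intensity) of the 40 tested genes with 95% intervals from limma, by role (blue replication, green D cyclins, purple G1/S kinases and cyclin E2, red mitosis). Dashed lines mark a 2-fold change, and 34 intervals lie between them.

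Genes of origin licensing and the helicase stood close to 0 and mostly on its lower side. Of 11 tested, 8 lay below 0 and 3 above, with a median of -0.13, and 1 passed an unadjusted p under 0.05. The helicase subunits Mcm2 to Mcm7 ranged from -0.27 for Mcm4 to 0.09 for Mcm3. Mcm4 read 12.84, 12.69 and 12.74 on wild-type arrays 1 to 3 and 12.52, 12.50 and 12.44 on knockout arrays 1 to 3. Every knockout array was below every wild-type array, by a change of -0.27 (SE 0.07, limma adjusted p = 0.0637). On slide 1 the Mcm4 change was -0.32 and between the single arrays of slide 2 -0.17. With the medians of all probes set equal in place of quantile normalisation Mcm4 passed at -0.40 (adjusted p = 0.0259), and averaged over its 3 probes it stood at 0.28 (adjusted p = 0.501). Mcm6 stood at -0.13 (SE 0.08) without overlap by a small margin, while Mcm2, Mcm5 and Mcm7 overlapped, at -0.05, 0.04 and -0.02. A dimmer Mcm7 probe, detected on 4 arrays, stood at 0.91 (SE 0.57). The loading factor genes Cdc6 and Cdt1 stood at 0.01 (SE 0.27) and -0.21 (SE 0.16), and Mcm10, for a factor of helicase activation, at -0.23 (SE 0.24), all with overlap. Gmnn stood at -0.36 (SE 0.21, limma adjusted p = 0.42), with every knockout array lower. Mcm3, the highest of the class, read 8.46, 8.63 and 8.33 in wild type and 8.62, 8.43 and 8.65 in knockout, so the groups overlapped (0.09, SE 0.20, limma adjusted p = 0.868; -0.05 with median scaling). Cdc45, which joins the helicase to form the active fork complex, was the lowest. It read 8.21, 8.16 and 8.14 in wild type and 8.04, 7.30 and 7.78 in knockout, without overlap (-0.46, SE 0.26, limma adjusted p = 0.406). The knockout arrays of Cdc45 spread more than the wild-type arrays (SD 0.38 against 0.04, n = 3 each), and the change was -0.64 on slide 1, -0.12 on slide 2 and -0.26 without knockout array 2. Its second probe, detected on all 6 arrays, stood at 0.17, and the mean of both at -0.15.

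Of 6 DNA synthesis genes 4 lay below 0 and 2 above, with a median of -0.18. Rfc4 had the lowest change of all 40 genes. It read 9.59, 9.94 and 9.87 in wild type and 9.46, 9.27 and 8.85 in knockout. The groups did not overlap, and Rfc4 was 1.53-fold lower in the knockout (-0.61, SE 0.19, 95% interval -1.03 to -0.19, limma adjusted p = 0.123). The change was -0.67 on slide 1 and -0.49 on slide 2, and a second Rfc4 probe stood at -0.38 (SE 0.21). Prim1, the catalytic primase subunit, was the highest, at 7.09, 7.24 and 7.05 in wild type and 7.12, 7.39 and 7.57 in knockout, and overlapped (0.23, SE 0.28, limma adjusted p = 0.736). Pola1, for the catalytic subunit of polymerase alpha, stood at -0.47 (SE 0.31) and Pcna at -0.24 (SE 0.16). Both were without overlap, Pcna by a small margin, and had intervals that included 0. Lig1, for DNA ligase I, and the flap endonuclease gene Fen1 overlapped, at -0.11 and 0.06. The other 3 Lig1 probes, each detected on all 6 arrays, stood above 0, at 0.21, 0.08 and 0.09.

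The nucleotide supply genes went both ways. The subunits of ribonucleotide reductase differed in sign. Rrm1, the large subunit, read 11.30, 11.32 and 11.31 in wild type and 11.14, 11.06 and 11.18 in knockout. It did not overlap and had a narrow interval (-0.18, SE 0.09, -0.38 to 0.02, limma adjusted p = 0.341). Rrm2, the small subunit, stood at 0.22 (SE 0.12, limma adjusted p = 0.406), and its second probe also at 0.22. Tyms, which encodes thymidylate synthase, read 7.79, 8.02 and 8.03 in wild type and 8.45, 7.74 and 8.33 in knockout, with overlap (0.23, SE 0.26, limma adjusted p = 0.723), and stood at -0.05 averaged over its 4 kept probes. Another Tyms probe, nearly as bright (mean 8.03 against 8.06), stood at -0.51 (SE 0.24), with every knockout array lower. The remaining kept probes stood at 0.03 and 0.06. Tk1, for thymidine kinase, lay at -0.01 with an interval from -0.72 to 0.70, which excludes neither a 1.5-fold rise nor a 1.5-fold fall.

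None of the 3 D cyclins passed the test, and differences between them were not tested. Ccnd1, for cyclin D1, read 12.55, 12.70 and 12.43 in wild type and 12.39, 12.49 and 12.11 in knockout. Knockout array 2 lay within the wild-type range, and the change was -0.23 (SE 0.10, unadjusted p = 0.0494, limma adjusted p = 0.294), or -0.12 without knockout array 3. Ccnd2, for cyclin D2, read 9.40, 9.77 and 10.00 in wild type and 10.04, 10.02 and 10.22 in knockout. All knockout arrays were above the wild-type arrays, the nearest by a small margin, and the change was 0.37 (SE 0.17, unadjusted p = 0.0484, limma adjusted p = 0.292), or 0.21 without wild-type array 1. Ccnd3, for cyclin D3, read 11.60, 11.54 and 11.64 in wild type and 11.54, 11.57 and 11.45 in knockout. These overlapped, at -0.07 (SE 0.09, 95% interval -0.26 to 0.12, limma adjusted p = 0.731). For this probe and these pools the interval lay within 1.5-fold either way. The second brightest probes stood at -0.18 for Ccnd1, 0.37 for Ccnd2 and -0.32 (SE 0.19) for Ccnd3, each with the sign of the first. A further, dimmer probe of each gene had the opposite sign (0.05, -0.41 and 0.10).

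Cdk2 and Cdk4, kinases of the G1 to S transition, stood above 0 without passing the test, while Cdk6, the other partner of the D cyclins, stood at -0.08 (SE 0.40). Cdk2 read 11.06, 10.55 and 10.85 in wild type and 11.20, 11.18 and 11.20 in knockout. The knockout arrays were nearly identical (SD 0.01, n = 3) and above all wild-type arrays (SD 0.26, n = 3), by 0.38 (SE 0.13, limma adjusted p = 0.157). The Cdk2 change was 0.24 without wild-type array 2. Its other kept probes stood at 0.17 and -0.30, and the mean over its probes at 0.08 (adjusted p = 0.888). Cdk4 read 9.57, 9.84 and 9.47 in wild type and 9.90, 9.99 and 10.10 in knockout, also without overlap (0.37, SE 0.15, limma adjusted p = 0.232). The Cdk4 change was 0.53 on slide 1 and 0.06 on slide 2, and its second probe stood at -0.03, with a mean over probes of 0.17. Ccne2, for cyclin E2, read 7.09, 7.13 and 6.77 in wild type and 7.03, 6.34 and 7.43 in knockout, with the knockout arrays on both sides of the wild-type range (-0.06, SE 0.35, limma adjusted p = 0.957).

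**Figure D3:**
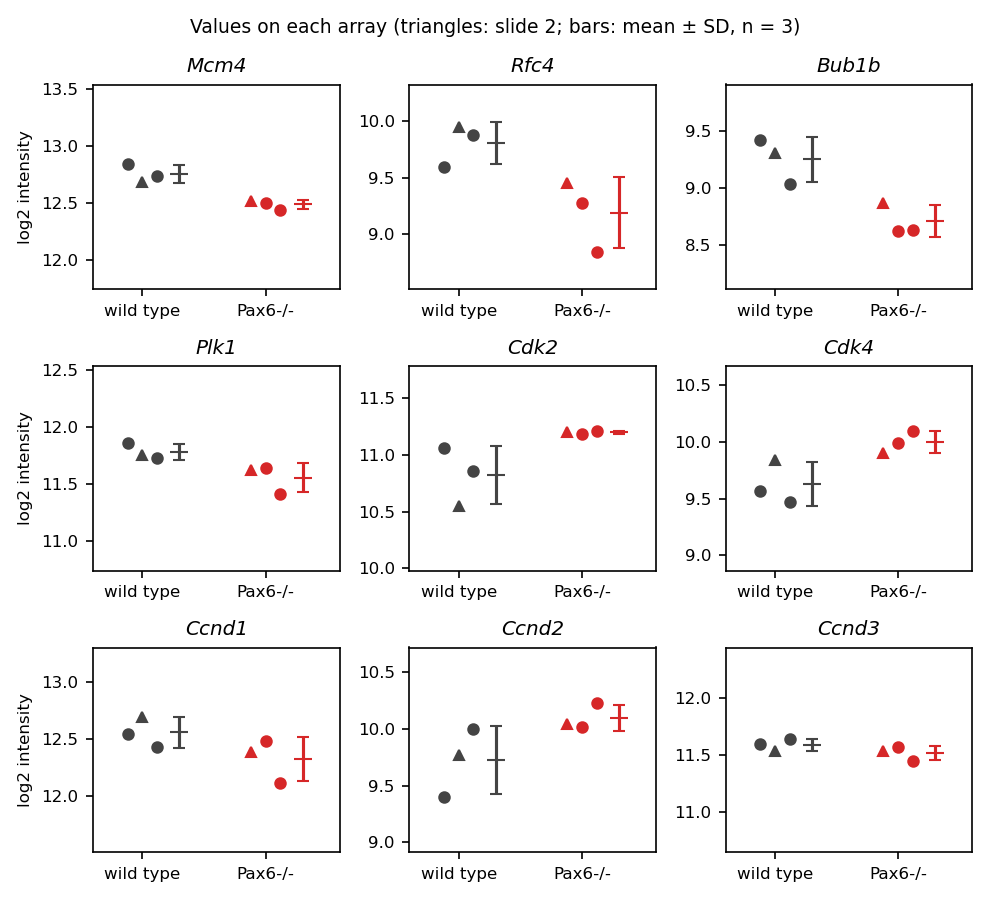
Log2 intensity on each array for the 8 genes at an unadjusted p under 0.05 and Ccnd3 (grey wild type, red Pax6-/-, triangles slide 2, bars mean ± SD of 3 arrays), every panel spanning the same height. Only Ccnd1 and Ccnd3 of these 9 have overlapping groups.

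Mitotic genes stood on both sides of 0. Of 5 tested genes of entry and exit, 4 lay above 0 and 1 below, with a median of 0.16. Cdk1 had the highest change of the 40 genes, at 6.980, 7.282 and 6.996 in wild type and 7.61, 7.38 and 7.74 in knockout. The groups did not overlap, but the interval was wide (0.49, SE 0.27, -0.12 to 1.09, limma adjusted p = 0.406). Its second kept probe stood at 0.22. Plk1 read 11.86, 11.75 and 11.73 in wild type and 11.62, 11.64 and 11.41 in knockout, lower on every array (-0.23, SE 0.09, limma adjusted p = 0.248). Cdc20, an activator of the anaphase-promoting complex, stood at 0.16 (SE 0.11), with no overlap, and its other 3 probes at 0.55, 0.15 and 0.13. The cyclin A2 gene Ccna2 and the centrosomal kinase gene Aurka overlapped between genotypes, at 0.08 and 0.17.

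Of 8 chromosome segregation genes, 4 lay above 0 and 4 below, with a median of -0.03. Bub1b read 9.42, 9.31 and 9.03 in wild type and 8.87, 8.62 and 8.63 in knockout. Every knockout array was lower, by a change of -0.55 (SE 0.18, 95% interval -0.95 to -0.14, limma adjusted p = 0.152). A dimmer Bub1b probe, also detected on all arrays, stood at 0.14 (SE 0.33), and the mean of both at -0.20. Aurkb, the kinase of the chromosomal passenger complex, was the highest, at 8.89, 8.37 and 8.80 in wild type and 8.78, 9.19 and 9.16 in knockout, with overlap (0.35, SE 0.21, limma adjusted p = 0.439; 0.19 without wild-type array 2). Birc5, for survivin, belongs to the same complex and stood at -0.09 (SE 0.17). The centromeric histone gene Cenpa stood at 0.03 with an interval from -0.16 to 0.21. The topoisomerase gene Top2a stood at 0.34 (SE 0.21) and Kif20a, for a motor of cytokinesis, at -0.43 (SE 0.32), both with overlap. Kif11, for a spindle motor, stood at 0.09 and split by slide, at 0.40 on slide 1 and -0.54 on slide 2. The checkpoint kinase gene Bub1 stood at -0.40 (SE 0.31), without overlap by a small margin.

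Among these genes the median change was lower for replication than for mitosis, but in the larger lists of other replication and other mitosis genes, 41 and 55 tested, both medians were -0.09. Of 21 replication genes, 14 lay below 0 and 7 above, with a median of -0.11. Of 13 mitosis genes, 5 lay below 0 and 8 above, with a median of 0.08, which was -0.08 with median scaling and -0.03 without knockout array 2. The D cyclins had a median of -0.07. Without overlap between genotypes were 8 replication genes, all lower, and 5 mitosis genes, 2 higher and 3 lower, against 11.2% higher and 11.5% lower over all genes. As a median over genes relative to the wild-type mean, replication stood at -0.01, 0.01 and -0.02 on wild-type arrays 1 to 3 and at -0.07, -0.21 and -0.08 on knockout arrays 1 to 3. Mitosis genes stood at 0.06, 0.00 and -0.09 in wild type and 0.03, 0.03 and 0.07 in knockout. Replication minus mitosis was -0.07, 0.02 and 0.07 in wild type and -0.10, -0.24 and -0.15 in knockout, so each knockout array was lower than every wild-type array, the nearest narrowly; this difference was not tested. The medians are descriptions with no test, since genes are not replicates. On slide 1 the medians were -0.11 for replication and 0.07 for mitosis, and on slide 2, with 1 array per genotype, -0.10 and -0.02. In bulk tissue, fewer cycling cells and less RNA per cycling cell cannot be told apart.

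**Figure D4:**
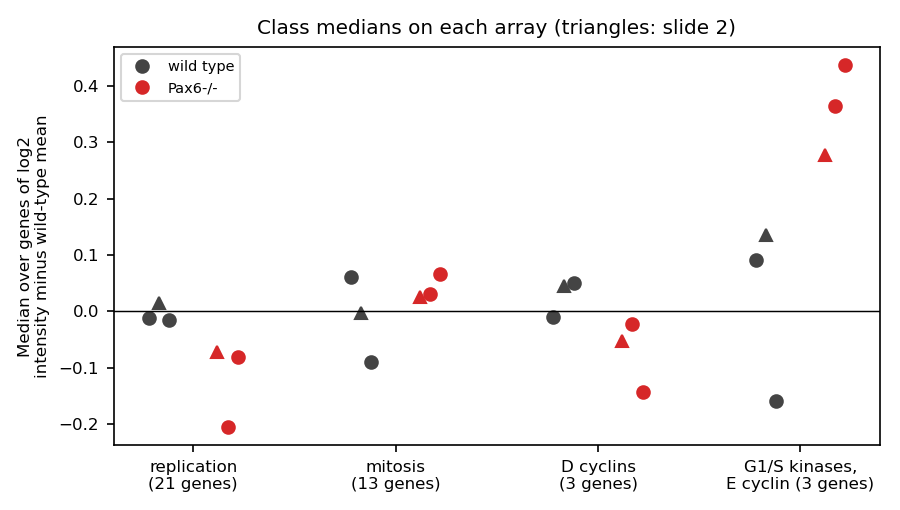
Median over the genes of each class of log2 intensity minus the gene's wild-type mean, on each array (grey wild type, red Pax6-/-, triangles slide 2). Replication genes stand at -0.07 to -0.21 on the knockout arrays, and mitosis genes at 0.03 to 0.07, which became a median change of -0.08 with median scaling.

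Probes of one gene often disagreed at this size of change. The 42 genes had 94 probes, of which 80 were kept, and 24 genes had 40 kept probes beside the brightest one. Of these 40, 22 had the sign of the brightest probe, as did 19 of the 30 detected on all 6 arrays. When every kept probe was tested, 0 of the 80 were called by limma, against 2.78% of 14535 kept probes. At an unadjusted p under 0.05 there were 10 of the 80, against 15.8% of all kept probes. The largest disagreement was at Bub1, where the brightest probe stood at -0.40 (SE 0.31) and a dimmer one, detected on 1 of 3 wild-type and all 3 knockout arrays, at 1.28 (SE 0.37, limma adjusted p = 0.104). Mcm4 stood at -0.27 by its bright probe and at 0.65 and 0.48 by dim ones. Mcm6 had 4 probes from -0.36 to -0.08, all below 0. Positions of the probes within transcripts were not used here.

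**Figure D5:**
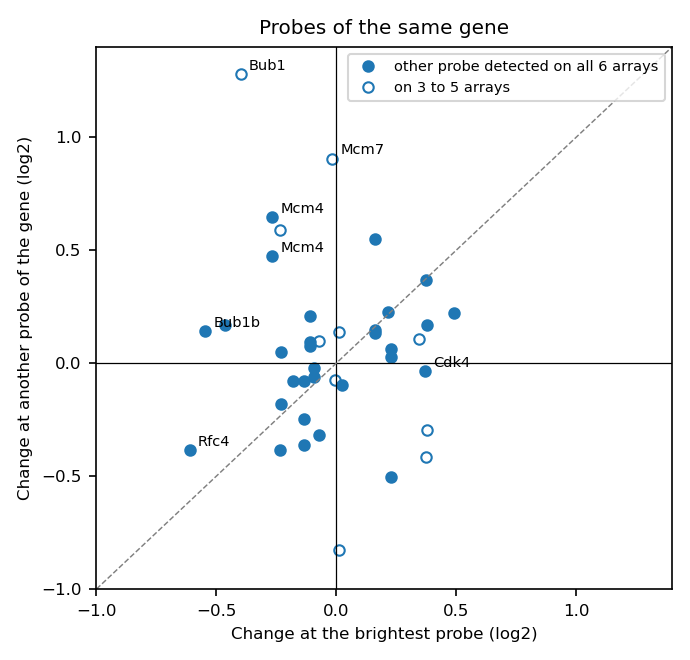
Change at the brightest probe against change at each of the 40 other kept probes of the same gene (filled: other probe detected on all 6 arrays; open: on 3 to 5), with the dashed line marking equality. In 22 of 40 pairs both probes lie on the same side of 0.

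Further genes of the same pathways were read from lists of other replication, mitosis and G1 control genes. By limma 0 of 41 tested other replication genes were called, against 3.28% of all genes, and their median was -0.09. At an unadjusted p under 0.05 there were 7 (17.1%), 1 higher and 6 lower, near the 16.9% of all genes (8.54% higher and 8.39% lower). The lowest was Rfc3, which like Rfc4 encodes a clamp loader subunit, at 6.58, 6.89 and 7.18 in wild type and 6.23, 5.71 and 5.33 in knockout. It was detected on 3 wild-type arrays and 1 knockout array, so its low values lie near background and the size of its change is uncertain (-1.13, SE 0.36, limma adjusted p = 0.127; -0.45 with no background correction). The other clamp loader subunits, Rfc1, Rfc2 and Rfc5, lay between -0.24 and 0.04. The highest was Pold2, a polymerase delta subunit, at 0.50 (SE 0.29, limma adjusted p = 0.424). Nearest the threshold among these 41 genes were 2 of the 3 subunits of the single-strand binding protein RPA. They were chosen after their values were seen. Rpa3 read 9.83, 9.57 and 9.43 in wild type and 8.94, 9.01 and 8.57 in knockout, lower on every array (-0.77, SE 0.19, limma adjusted p = 0.0518), and Rpa1 stood at -0.63 (SE 0.18, limma adjusted p = 0.0919). Rpa1 stood at -0.41 without knockout array 3 and passed with median scaling (-0.79, adjusted p = 0.0318). Rpa2 stood at -0.01 (SE 0.16). Over the 20 other settings the limma adjusted p of Rpa3 ran from 0.0233 to 0.268, and it passed in 4 of them.

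By limma 0 of 55 tested other mitosis genes were called, against 3.28% of all genes, and their median was -0.09. At an unadjusted p under 0.05 there were 6 (10.9%), 4 higher and 2 lower, against 16.9% of all genes. The highest was Cenpn, a centromere protein gene, at 0.74 (SE 0.27, limma adjusted p = 0.19), and the lowest Cdca3, a trigger of mitotic entry, at -0.65 (SE 0.23, limma adjusted p = 0.167). Cdca3 passed at -0.93 without wild-type array 2 (adjusted p = 0.0325), and stood at -0.43 without wild-type array 3 (adjusted p = 0.417) and at -0.42 averaged over its probes. Kif23, a motor of cytokinesis chosen after its values were seen, read 10.95, 10.91 and 10.86 in wild type and 11.24, 11.25 and 11.32 in knockout. It was higher on every knockout array by 0.36 (SE 0.09, limma adjusted p = 0.0665), but by 0.19 averaged over its probes (adjusted p = 0.584) and 0.21 with median scaling (adjusted p = 0.346). For 21 G1 control genes limma called 0, with 2 at an unadjusted p under 0.05 (9.52%, against 16.9% of all genes), both higher. The higher of them, Tfdp2, for an E2F partner, stood at 0.53 (SE 0.17, limma adjusted p = 0.135), and the lowest, the Myb family gene Mybl2, at -0.39 (SE 0.34). Of 4 tested Cdk inhibitor genes limma called 0, with 1 at an unadjusted p under 0.05 (25%, against 16.9% of all genes). Cdkn1a, for p21, stood at 0.86 (SE 0.37, limma adjusted p = 0.261), and Cdkn1c, for p57, at -0.02 (SE 0.11).

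Each array detected 16242 to 17735 of its 45281 probes. Pax6 itself was 1.95-fold lower in the knockout (-0.97, SE 0.13, limma adjusted p = 0.00237). Of 8 surface ectoderm markers 6 were detected on all arrays, with Krt14 and Trp63 called higher, Trp63 not in 11 of 20 other settings. Of the 8 markers, 3 lay above 0 and 5 below, with a median of -0.17. Cdh1 (-0.22), Epcam (-0.33) and Tfap2a (-0.49) were lower at an unadjusted p under 0.05 by limma but were not called. Of 7 lens markers Foxe3 and Cryaa were not detected on any array, and Prox1 and Maf were called lower like Pax6. The surface ectoderm markers summed to intensities of 13111 to 13719 in wild type and 12275 to 12727 in knockout. The lens markers summed to 2892 to 3755 in wild type and 1357 to 1571 in knockout, and Pax6 was the brightest of them. All 5 tested lens markers lay below 0, with Six3 at -0.87 (SE 0.28, limma adjusted p = 0.127) not called. Of 6 endothelial markers 5 were not detected on any array. Summed over the 7 erythroid markers on the array, intensity was 2248 to 2596 in wild type and 4543 to 5016 in knockout. All 4 tested were higher on every knockout array, and 3 were called (Hba-a1, Hbb-bh1 and Hbb-y). The fourth, Hba-x, was not called (1.37, SE 0.33, limma adjusted p = 0.0516), and Gata1 was not detected. The 7 mesenchyme markers summed to 1904 to 2119 in wild type and 1721 to 1984 in knockout. Pdgfra was called lower (-1.23) and Col3a1 higher, the latter not in 13 of 20 other settings (limma adjusted p = 0.059 with slide as a block). Of the 6 mesenchyme markers tested, 4 lay above 0 and 2 below, with a median of 0.49. Twist1 (0.63) and Prrx1 (0.99) were higher at an unadjusted p under 0.05 by limma but were not called. The 5 optic vesicle markers summed to 951 to 1096 in wild type and 1155 to 1336 in knockout. All 4 tested lay above 0, with a median of 0.74. Rax (1.19) and Lhx2 (1.18) were higher at an unadjusted p under 0.05 by limma but were not called. Lhx2 was detected on 0 wild-type and 3 knockout arrays, so its wild-type values lie near background. The 5 macrophage markers summed to 159 to 239 and 189 to 454, with Ptprc, Lyz2 and Cx3cr1 not detected on any array. The part of these tissues in the values of replication and mitosis genes was not tested.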

How the data were processed

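The authors deposited, per the file headers, an intensity for every probe (average over its beads, without normalisation between arrays) together with a detection p-value. GenomeStudio is named in the submitters' processing notes; no settings are stated there. The authors also deposited normalised intensity values, whose method is not stated, and these served as an alternative. Of 45281 probes, 34885 had 1 gene symbol in the platform annotation, 18 several and 10378 none.

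From the intensities, limma 3.58.1 under R 4.3.3 gave normexp background correction from the detection p-values (offset 16), quantile normalisation, log2, probes detected (p under 0.01) on at least 3 of 6 arrays, and the brightest kept probe per gene. The genotypes were contrasted by limma (lmFit, eBayes with an intensity trend), with Benjamini-Hochberg adjustment over 9190 genes and a threshold of 0.05, two-sided. The genes with values on every array are those at an unadjusted p under 0.05, the D cyclins and the highest and lowest of each role class; of other lists, the called genes or the highest and lowest. Genes and lists were chosen with earlier results of these data known. Replicate numbers did not pair arrays (correlations of same-numbered deviations -0.026 to -0.002). The number of arrays limits the precision. Background shares came from the same fit, and each of 20 alternatives was fitted separately.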

Additional observations from a re-analysis of the deposited data

How the results depend on the processing

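The counts of calls, the class medians and 38 genes named by rule or singled out were recomputed under 20 alternatives, 6 of which left out 1 array; for Krt14, Maf, Prox1 and Rfc3 only 19 gave a value, since they were not detected on all 6 arrays. In the 19 other than median scaling limma called 0 of the replication and mitosis genes in either direction; with median scaling it called 1 lower, Mcm4. That scaling moved the median of all genes from -0.01 to -0.13, a shift of -0.12, and lowered the share of calls that were higher from 46.2% to 26.1%. Under it the median change was -0.16 for all of these genes, -0.27 for replication, -0.082 for mitosis and -0.23 for the D cyclins; relative to the median of all genes these were -0.14 for replication, 0.05 for mitosis and -0.09 for the D cyclins, against -0.10, 0.09 and -0.06 with quantile normalisation. Averaging the kept probes of a gene moved the replication median to -0.047.

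Over all genes the calls, 139 higher and 162 lower, became 89 and 107 with no detection filter, 28 and 40 on slide 1 alone, 72 and 104 with no trend of variance on intensity, and 58 and 74 in a test against 1.2-fold, with 264 lower under median scaling. With the replicate number as a block they were 81 and 101, and 0 of the replication and mitosis genes were called; same-numbered arrays did not deviate together, so the numbers share only a name. Leaving out 1 array gave 59 to 107 higher and 84 to 119 lower genes, and medians of -0.06 to -0.00 for all 40 genes, -0.18 to -0.060 for replication, -0.032 to 0.090 for mitosis and -0.10 to -0.04 for the D cyclins.

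Over all 40 genes the sign turned for 8 with median scaling, all to below 0, for 7 with probes averaged, for 3 on slide 1 alone, for 1 each with scaling over detected probes and with no background correction, and for 1 to 6 with 1 array left out. Among the 38 genes it turned for Mcm3 with median scaling (-0.046), for Mcm4 (0.28) and Tyms (-0.047) with probes averaged, and for Cdkn1c on slide 1 alone (0.055). With 1 array left out, Ccne2 ran from -0.31 to 0.23, above 0 without knockout array 2 or wild-type array 2 (0.01), and the sign also turned for Cdkn1c without knockout array 1 (0.04) or wild-type array 1 (0.055). The cause was not tested. Signal over background limited Ccne1 and Ccnb2, which were not detected on any array.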
